A study of Mus musculus with 8 samples.

Results

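The regions described here are stretches of chromatin bound by retinoid X receptors (RXR) at the ends of protein-coding genes in both wild-type hearts of the study. They were chosen by their own readout: a chromatin immunoprecipitation peak in WT replicate 3 that had at least 1 bp in common with a peak called in WT replicate 4, and a summit within 1 kb of either end of a protein-coding gene. This selected 1628 regions out of the 4377 peaks of WT replicate 3 shared by the WT hearts (37.2%), out of 19129 peaks in that heart and out of 23961 peaks in all 4 hearts. They are called gene-end regions below. RXR was immunoprecipitated from fixed chromatin of the total heart of newborn mice at postnatal day 0 and sequenced (ChIP-seq). The WT group and the edKO group, which lacked Rxra and Rxrb (RXRab-/-) in cardiomyocytes alone, each comprised 2 hearts, numbered 3 and 4, and each heart was a biological replicate with its own input library. All hearts were fixed with DSG followed by FA. The labels do not name the driver of the deletion, and the other cells of a total edKO heart keep both genes.

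RXR binds DNA mostly as the obligate partner of another nuclear receptor, among them the peroxisome proliferator-activated receptors (PPAR), the liver X receptors (LXR), the thyroid hormone receptors and the retinoic acid receptors. Each receptor of the pair contacts a core hexamer with the letters AGGTCA, and the spacing of the hexamers in a direct repeat differs between partners: DR1, with a spacer of 1 base, is the textbook element of PPAR and RXR, and DR4, with a spacer of 4 bases, that of LXR or thyroid hormone receptors with RXR. In the newborn heart, nuclear receptors are known for the shift of cardiomyocytes from glucose towards fatty acids as fuel. A gene end is either the start of the gene, next to its promoter, or the far end, where transcription stops.

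The sequences that carry the regions could be read where a summit fell into a promoter, here the 250 bases before and 50 bases after a gene start in RefSeq (GRCm38.p6, the same build as mm10). This held for 688 of the 1628 regions. Sequences were looked for at the genes of the 20 strongest regions and at the up to 4 genes with the strongest regions of each list below. Of 37 such genes whose promoter held a summit, 10 had a core hexamer or a direct repeat centred within 25 bp of it. The neighbours Hspd1 and Hspe1, both among the 10, share a region. Over all 688 regions, 600 (87.2%) had neither hexamer nor repeat there. The stretches of 7 of the 10 genes, with up to 60 bases on either side of the summit, are shown as examples. They are written 5′ to 3′ on the strand of the gene, reach at most 30 bases past the start, and have the matching letters in capitals. On the opposite strand the core hexamer reads TGACCT.
Acsl3: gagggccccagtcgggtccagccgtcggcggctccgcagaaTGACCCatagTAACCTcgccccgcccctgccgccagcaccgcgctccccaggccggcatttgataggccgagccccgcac
Slc25a20: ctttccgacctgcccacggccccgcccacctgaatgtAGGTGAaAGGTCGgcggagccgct
Hspe1: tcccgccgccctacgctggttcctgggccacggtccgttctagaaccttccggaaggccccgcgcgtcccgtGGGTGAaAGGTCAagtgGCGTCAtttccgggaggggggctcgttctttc
Mrps30: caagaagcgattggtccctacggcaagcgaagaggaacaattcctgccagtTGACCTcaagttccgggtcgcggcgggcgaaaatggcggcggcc
Cox5b: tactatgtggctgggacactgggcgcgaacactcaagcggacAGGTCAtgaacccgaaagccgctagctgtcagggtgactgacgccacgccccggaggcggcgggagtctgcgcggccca
Myl2: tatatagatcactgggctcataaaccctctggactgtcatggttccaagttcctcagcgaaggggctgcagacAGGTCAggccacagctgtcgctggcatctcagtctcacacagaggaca
Dnaja1: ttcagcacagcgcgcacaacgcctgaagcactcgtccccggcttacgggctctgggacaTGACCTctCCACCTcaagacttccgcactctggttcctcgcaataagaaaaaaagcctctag

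The stretch of Acsl3, which encodes an acyl-CoA synthetase for long-chain fatty acids, lay at chr1:78657672-78657792 on the + strand, with a DR4 of 2 mismatches centred 11 bp before the summit (-11). That of Slc25a20, the carrier that brings acylcarnitines into mitochondria, lay at chr9:108662105-108662165 on the + strand and ended at the summit, with a DR1 of 2 mismatches centred at -17 bp. At the start of Hspe1, the co-chaperonin gene that shares its promoter with the mitochondrial chaperonin gene Hspd1 (chr1:55088022-55088142, + strand), an exact hexamer was part of both a DR1, centred at 18 bp, and a DR4, centred at 26 bp, each with 2 mismatches. The exact hexamer was centred at -6 bp in the promoter of the mitochondrial ribosomal gene Mrps30 (chr13:118387223-118387317, - strand). It was centred at -15 bp in that of the cytochrome c oxidase gene Cox5b (chr1:36691300-36691420, + strand). In the ventricular myosin light chain gene Myl2 (chr5:122092975-122093095, + strand) it was centred at 15 bp. In the co-chaperone gene Dnaja1 (chr4:40722224-40722344, + strand) it was centred at 1 bp and formed a DR2 of 2 mismatches.

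Across the promoters, the core hexamer and the direct repeats were denser close to the summits of gene-end regions than farther away. Of the direct repeats DR4 had the most matches near a summit. The search used AGGTCA without mismatch, and AGGTCA, a spacer of 0 to 5 free bases and AGGTCA again with up to 2 mismatches in the 12 fixed letters (DR0 to DR5), on both strands. The windows compared, centres within 25 bp of the summit and centres 75 to 150 bp away, were chosen after seeing the data. In the promoter windows of the 688 regions, 30 DR4 matches were centred within 25 bp of the summit, or 0.922 per 1000 positions, against 3 matches, or 0.0467 per 1000 positions, at 75 to 150 bp. DR1 matches numbered 15 near (0.467 per 1000) and 6 away (0.0923 per 1000), and the hexamer itself 50 near (1.51 per 1000) and 28 away (0.423 per 1000). DR2 had 10 near and 1 away, DR0 had 7 and 3, DR3 had 5 and 4, and DR5 had 13 and 9. In the promoters holding 1577 peaks that WT replicate 3 did not share, DR4 gave 11 matches near the summit (0.148 per 1000) and 7 away (0.0480 per 1000), so it was denser near the summit there too. DR1 gave 6 near (0.0819 per 1000) and 14 away (0.0948 per 1000), and DR0 gave 14 near (0.187 per 1000) and 10 away (0.0677 per 1000). There the hexamer had a density of 0.688 per 1000 near the summit, and 0.459 per 1000 away from it.

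Letters recognised by general promoter factors differed less between the windows. The CACGTG E-box occurred at 0.604 per 1000 positions near the summit and 0.574 per 1000 away. The ETS letters CCGGAA gave 2.33 and 1.93 per 1000, the CCAAT box 1.60 and 2.49, and the GC box GGGCGG 6.10 and 7.10. The palindrome GCGCATGCGC of the factor NRF1, with 1 mismatch allowed, gave 0.486 and 0.749 per 1000. The median distance to the summit was 15.5 bp for DR4 and 35.5 bp for the hexamer, against 89 bp for the E-box and 75.5 bp for the ETS site. The hexamer is part of many direct repeats, so these counts overlap: of 43 promoters with a DR4, 20 also held an exact hexamer. The element of estrogen-related receptors, TNAAGGTCA, holds the hexamer too and was in 7 of 744 promoters with a gene-end summit (0.941%), against 1.03% of all promoters. The GC box and DR0 were added after seeing the data.

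**Figure D1:**
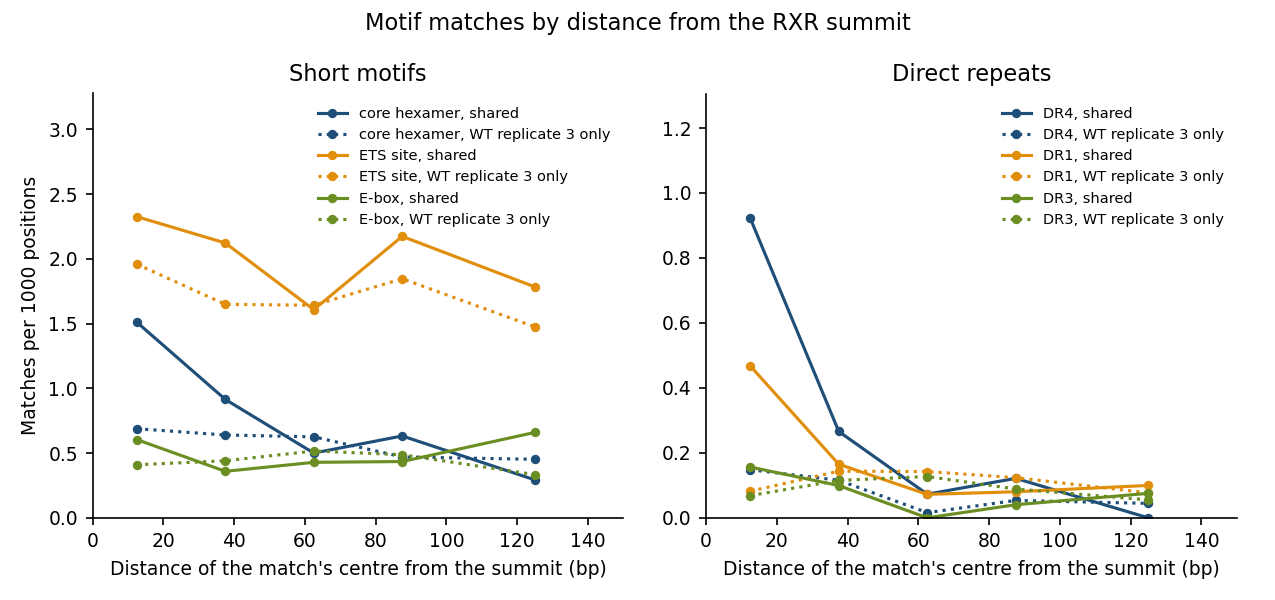
Matches per 1000 searched positions (y axis) against the distance in bp of a match's centre from the RXR summit (x axis, plotted at the middle of each bin), for gene-end regions shared by the WT hearts (solid lines, 688 regions) and for peaks of WT replicate 3 alone (dotted lines, 1577 peaks). The core hexamer, DR4 and DR1 of the shared regions are highest in the bin within 25 bp of the summit, while the density of the ETS site and the E-box differs less between that bin and those beyond 75 bp (2.33 against 1.93 and 0.604 against 0.574 per 1000).

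As a share of promoters the direct repeats were uncommon, and most gene-end regions held none of these letters near the summit. DR4 was found in 43 of 744 promoters holding a summit of a gene-end region (5.78%, 95% Clopper-Pearson interval 4.21 to 7.71%), in 8 of 73 promoters of the 162 strongest regions (11%, 4.85 to 20.5%), in 34 of 1681 promoters of unshared WT replicate 3 peaks (2.02%, 1.40 to 2.82%) and in 2.65% of all 17492 promoters. The 744 promoters held the summits of 688 regions, and the 1681 those of 1577 peaks, since a summit can lie in the promoters of neighbouring genes. The intervals count such promoters as separate. DR1 was found in 4.97% of the promoters with a gene-end summit (3.53 to 6.79%), against 3.37% of all promoters and 2.91% for unshared peaks (2.16 to 3.84%). The exact hexamer was in 17.3% of promoters with a gene-end summit (14.7 to 20.3%), 14.0% for unshared peaks (12.4 to 15.8%) and 14.5% of all promoters. When all 1451 genes with a region at their start were taken, wherever its summit lay, the hexamer share was 14.1%. Of the 688 regions, 26 had a DR4 centred within 25 bp of the summit, with median fold enrichments of 14.0 and 7.16 in WT replicates 3 and 4, and 600 had neither hexamer nor repeat there, with medians of 8.55 and 5.84. Besides Acsl3, the regions with a DR4 near the summit and the highest fold enrichment were those at Fam214b (26.1 and 12.8), Lsm8, an RNA-binding protein gene (27.0 and 11.1), and Susd6 (15.5 and 19.3). These 3 were chosen after their values were seen. Among regions with a DR1 near the summit were Slc25a20 (27.8 and 22.6) and Etfa, a subunit of the electron transfer flavoprotein (20.6 and 16.1).

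The promoters with a gene-end region differed from other promoters in base composition, which moves with the letters searched. Their mean GC content was 65.5% where the promoter held a summit, against 55.9% over all 17492 promoters and 64.3% for promoters with an unshared WT replicate 3 summit. The ETS letters were in 40.2% of promoters with a gene-end summit, 34.4% of those with an unshared summit and 19.1% of all promoters, and the GC box in 77.6, 72.6 and 46.3%. The NRF1 site was in 17.9, 16.7 and 8.80%. Among promoters with a GC content of at least 60%, a limit set after seeing the data, DR4 was in 5.32% of 583 promoters with a gene-end summit (3.64 to 7.46%), 1.58% of 1204 with an unshared summit (0.953 to 2.45%) and 1.63% of 6745 in all. The hexamer was in 16.3, 11.9 and 9.31% of the same sets. The element of estrogen-related receptors was in 0.686% (4 of 583, 0.187 to 1.75%), 0.332 and 0.371% of them, so it was not below the share of all promoters there, on few matches. A match is a run of letters and was not tested for binding.

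Fold enrichment, the authors' own ratio of the fragments at a summit to the local background of that heart, was higher in WT replicate 3 than in WT replicate 4 at most gene-end regions. The median was 8.75 in WT replicate 3 (interquartile range 6.38 to 13.4, range 2.58 to 74.6) and 5.91 in WT replicate 4 (4.84 to 8.17, range 2.77 to 55.3). The median ratio of the hearts within a region was 1.44, with a 10th percentile of 0.841 and a 90th of 2.40, and 328 of the 1628 regions were higher in WT replicate 4. A fold of at least 10 in both hearts was reached by 236 regions (14.5%) and of at least 20 by 37 (2.27%). The summits of the hearts were a median of 40 bp apart, and 58.9% were within 50 bp. The 1628 regions were joined to 1608 different peaks of WT replicate 4, since 40 regions shared their partner with a neighbour. These values helped to choose the regions and describe them only.

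Other shared regions, away from gene ends, were slightly stronger and narrower. The 2749 of them had median fold enrichments of 9.76 and 6.13 and a median width of 468 bp, against 536 bp at gene ends. The 4344 peaks at gene ends that only WT replicate 3 held had a median fold of 4.88 and a width of 306.5 bp. Of all WT replicate 3 peaks at gene ends 27.3% were shared, and of those off gene ends 20.9%. Fragments at the summit, recovered from fold enrichment and p-value, had medians over the gene-end regions of 35 and 24 in the WT hearts, in the order of their numbers. Peak lists do not hold the total reads of a library. The lowest background recovered at a summit, in fragments per position, was 2.48 and 2.32 for the WT hearts, and 3.11 and 2.96 for the edKO hearts with their 8 and 127 peaks. Except in edKO replicate 3, solutions below the commonest background of a list were set aside, so the lowest value follows from that limit.

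Among the strongest gene-end regions were those of a cardiac contraction gene and a channel gene. The region at Myh6, which encodes the alpha cardiac myosin heavy chain, on chromosome 14 from 54966523 to 54969049, had folds of 70.8 and 51.3 in WT replicates 3 and 4 and 18.7 in edKO replicate 4, and edKO replicate 3 had no peak there. Pkd2l1, a polycystin family channel gene, had a region on chromosome 19 from 44247975 to 44248750 with 60 and 40.2 in the WT hearts and 6.76 and 8.54 in edKO replicates 3 and 4. At Myh6 and Pkd2l1 both WT values lay above every edKO value, an order that picking regions by their WT folds favours. The summit at Myh6 was 524 bp outside the gene as the RefSeq gene table places it.

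The next regions belonged to genes of varied function. Trp53inp2, an autophagy gene whose product also binds nuclear receptors, had 53.4 and 27.3 in WT replicates 3 and 4 and 9.80 in edKO replicate 4. Nr1d2, the heme-binding clock repressor REV-ERB beta, had 41.1 and 36.3, with 5.13 in edKO replicate 4. The histone methyltransferase gene Dot1l had 47.1 and 29.0, with 6.41 in edKO replicate 4, and the Polycomb cofactor gene Jarid2 had 33.4 and 37.9, with 6.32. Jarid2 was the only region among the 20 strongest that was higher in WT replicate 4. Fasn, the fatty acid synthase gene, had 41.8 and 28.8 in the WT hearts and 7.33 in edKO replicate 3, with no peak in edKO replicate 4. Acsl3 had 44.0 and 25.5, and 6.55 in edKO replicate 4, and the glycogen branching enzyme gene Gbe1 had 34.1 and 32.2, and 4.95. The WT hearts differed most among these regions at the zinc finger gene Zfp386, with 50.8 and 14.1 and an edKO replicate 4 fold of 9.09. Others of the 20 strongest were nearest to Cldn12, Acaa2, Rev1, Usp32, Zbtb20, Chn1, Hivep3, Slc44a1 and Rnf138, with folds from 31.3 to 49.8 in WT replicate 3 and from 20.5 to 32.7 in WT replicate 4. Chn1, a Rac GTPase-activating protein gene, was the only one of the 20 without a peak in either edKO heart (35.0 and 26.1 in the WT hearts).

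**Figure D2:**
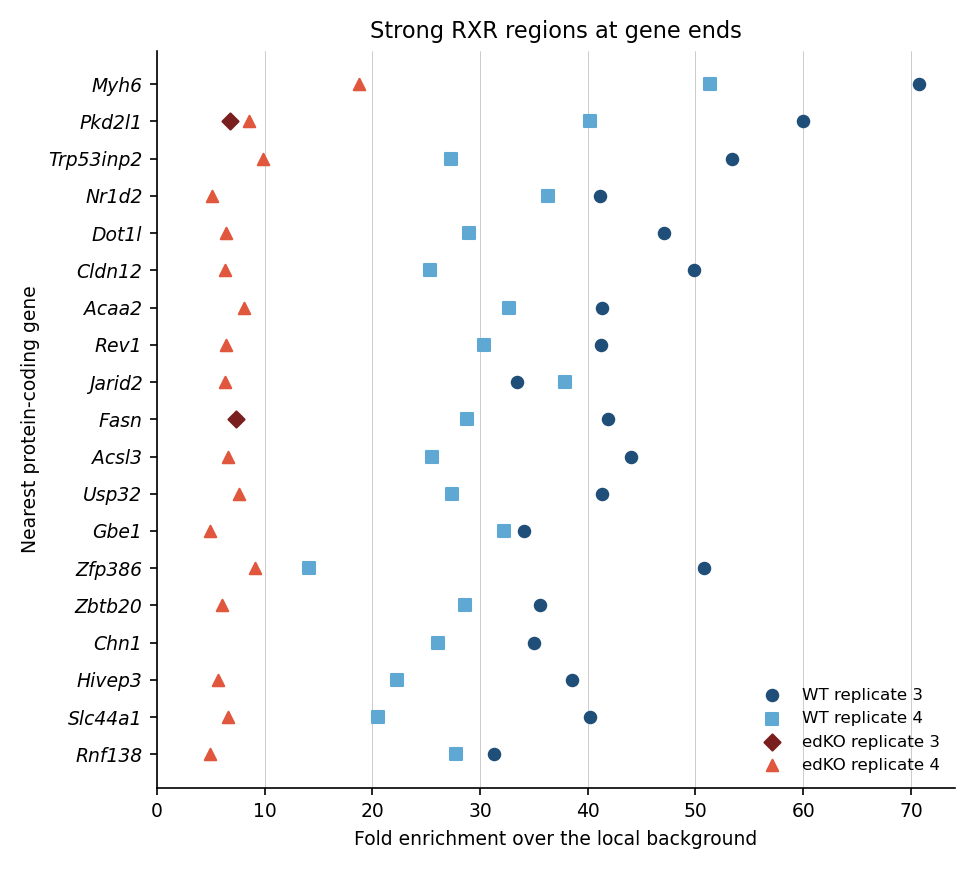
Fold enrichment over the local background (x axis) of 19 of the 20 strongest gene-end regions, named by the nearest protein-coding gene (y axis), in each of the 4 hearts (1 symbol per heart, no symbol where the heart had no peak). All WT symbols lie to the right of the edKO symbols of the same region, and edKO replicate 3 has a symbol at Pkd2l1 and Fasn alone. The regions were picked by their WT folds, which favours this order.

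The ratio of WT replicate 3 to WT replicate 4 was highest at Pet117, an assembly factor gene of cytochrome c oxidase that shares its promoter with Kat14 (22.4 and 3.87 in WT replicates 3 and 4), at the transcription factor gene Sox7 (20.1 and 3.73) and at the far end of the immune receptor gene Oscar (16.7 and 3.29). It was lowest at the Mediator gene Med26 (3.62 and 23.3), at Faap100, a gene of the Fanconi anaemia pathway (3.48 and 12), and at Cisd2 (3.35 and 9.90). At Med26 and Faap100 the partner peak of WT replicate 4 was also the partner of a neighbouring region at the same gene, where WT replicate 3 had folds of 22.7 and 7.83. None of these 6 regions had a peak in an edKO heart. Just inside the limit of 1 kb lay regions at Colgalt1 (999 bp, 9.01 and 6.55), Slc16a13 (995 bp, 3.62 and 5.55) and Plekhb1 (988 bp, 24.3 and 10.6). Just outside it lay shared regions at D5Ertd579e (1002 bp, 13.0 and 19.6), BC034090 (1003 bp, 11.2 and 5.65) and Nrp1 (1003 bp, 7.45 and 3.87).

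**Figure D3:**
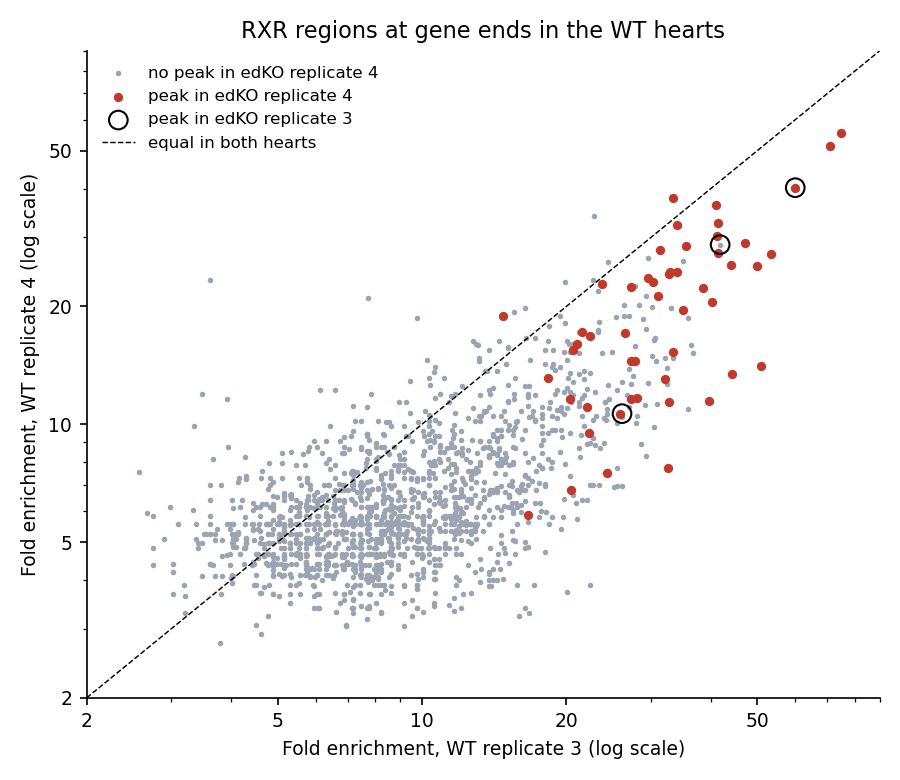
Fold enrichment of the 1628 gene-end regions in WT replicate 3 (x axis) and WT replicate 4 (y axis), both on log scales, with regions that had a peak in edKO replicate 4 in red and those with a peak in edKO replicate 3 circled. Most points lie below the dashed line of equal values, and the 51 red points lie towards the upper right, none of them below 14.8 in WT replicate 3.

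The edKO hearts, which the choice of regions did not use, kept few peaks at gene ends, and those were at the strongest WT regions. A peak of edKO replicate 4 overlapped 51 of the 1628 regions (3.13%), where it overlapped 2.86% of all 4377 shared regions. A peak of edKO replicate 3 overlapped 3 of the 1628 (0.184%), where it overlapped 0.183% of all shared regions. The gene-end regions thus held edKO peaks at a share near that of all shared regions. The lists of the edKO hearts held 127 and 8 peaks in all, and every one of them overlapped a peak of WT replicate 3. No test was made between the genotypes, since 2 hearts against 2 cannot give a two-sided exact permutation p below 0.333. An absent peak means that the heart's signal did not pass the authors' threshold. In bulk tissue, fewer cells with RXR and less RXR per cell cannot be told apart.

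By rank of the mean WT fold, all of the 10 strongest gene-end regions had a peak in edKO replicate 4, then 19 of the next 40 (47.5%), 12 of the next 50 (24.0%), 8 of the next 100 (8%) and 2 of the next 200 (1%). Of the following 400 regions none had one (95% Clopper-Pearson upper limit 0.918%), and of the 828 weakest none (0.445%). The weakest region with an edKO replicate 4 peak was at Atp5g2, a subunit gene of ATP synthase, at rank 355 (16.6 and 5.85 in WT replicates 3 and 4, 5.05 in edKO replicate 4). Over the 51 regions the edKO replicate 4 fold had a median of 5.81 (3.08 to 18.7) and was a median of 18.4% of the WT replicate 3 fold (12 to 33%). Its summit was a median of 28 bp from that of WT replicate 3. The edKO replicate 4 fold was below the WT replicate 3 fold in each of the 51, and above the WT replicate 4 fold at 1 of them, Vars, the valyl-tRNA synthetase gene (32.6 and 7.74 in the WT hearts, 8.59 in edKO replicate 4). At H1f4 it was close to the WT replicate 4 fold (20.4 and 6.78, against 6.74). At Nrep, by contrast, WT replicate 4 was the higher WT heart (14.8 and 19.0, against 3.76). Fold enrichment ranks regions within the list of a heart, so shares between hearts only describe these values. Whether the remaining peaks came from cells outside the cardiomyocyte lineage was not tested.

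The highest edKO replicate 4 folds included those at Myh6 and Trp53inp2 (above) and at Klf11, a zinc finger transcription factor gene (9.62, against 30.2 and 23.1 in WT replicates 3 and 4), Zfp386, Vars, Pkd2l1 and Tpt1, the translationally controlled tumour protein gene (8.19, against 34 and 24.5). They were followed by Acaa2 and Usp32, a deubiquitinase gene (7.58, against 41.3 and 27.4). In edKO replicate 3 the 3 regions were those at Fasn, Pkd2l1 and an end of Naa38, an acetyltransferase subunit gene, next to Tmem88 (6.04, against 26.1 and 10.6 in the WT hearts). Pkd2l1 was the only gene-end region with a peak in both edKO hearts. At Rxrb, one of the genes deleted in the edKO cardiomyocytes, the region between its start and that of the zinc transporter gene Slc39a7 had folds of 35.0 and 19.5 in the WT hearts and 5.63 in edKO replicate 4, with no peak in edKO replicate 3. Whether the deletion took place cannot be read from peak lists, which carry no level of the RXR genes.

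Gene-end regions lay at gene starts far more often than at far ends. The orientation of the nearest gene was known for 1363 regions, and 1305 of those (95.7%) were nearest to a gene start and 58 to a far end. Among unshared WT replicate 3 peaks at gene ends the share of starts was 93.5%. For 265 regions the reference used here gave no orientation. Summits nearest to a start had a median distance of 161 bp, 34.6% of them lay within 100 bp and 63.8% within 250 bp, while those nearest to a far end had a median distance of 514.5 bp and 22.4% within 250 bp. Of 1321 regions with a start within 1 kb, 47.7% had their summit before it, and the median signed position was 10 bp after it. The bins from 100 bp before to the start and from the start to 100 bp after it held 17.0 and 17.3% of these regions.

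**Figure D4:**
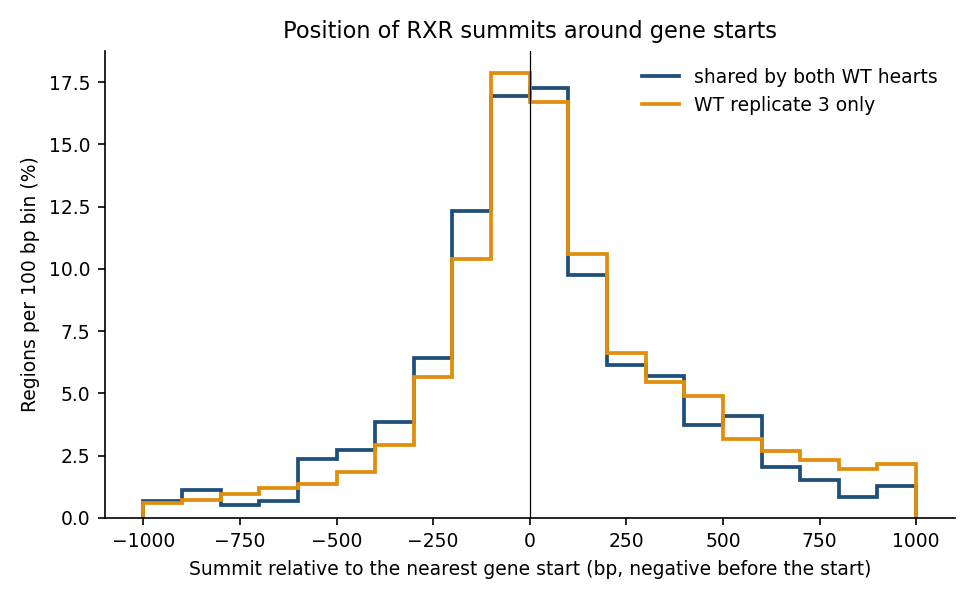
Share of regions per bin of 100 bp (y axis, %) by the position of the RXR summit relative to the nearest gene start (x axis, bp, negative before the start), for 1321 gene-end regions shared by the WT hearts and 3303 peaks of WT replicate 3 alone. Both outlines are highest within 100 bp on either side of the start and fall off on both sides.

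Most gene-end regions had a single gene end within reach, and some lay between gene starts of opposite strands. Of the 1628 regions 1337 had 1 gene end within 1 kb, 281 had 2, 9 had 3 and 1 had 4. Starts on both strands were within 1 kb of 179 regions (11%). The strongest of these were at Usp32, at Slc39a7 and Rxrb, and at Iqck and Knop1 (36.7 and 15.2). A region with 3 ends lay at Il4i1b, Nup62 and Atf5 (30.8 and 14.5), the last of which encodes a stress transcription factor. The region with 4 ends lay between Prdx5, a mitochondrial peroxiredoxin gene, Trmt112 and Esrra, the estrogen-related receptor alpha gene (12.6 and 5.35), and its summit was 923 bp from the far end of Esrra. Regions with only far ends within reach numbered 48 (2.95%), led by the region at the far end of Adamtsl4 on chromosome 3 from 95676704 to 95677281 (30.4 and 16.4). The far ends of Rin2 (32.4 and 12.7), Zswim4 (27.8 and 14.5) and Slc29a1, a nucleoside transporter gene (27.3 and 11.6), followed. Of the 58 regions nearest to a far end, 5 had an edKO replicate 4 peak (8.62%), and of the 1305 nearest to a start, 36 (2.76%).

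Of the 21887 protein-coding genes of the table, 1838 had a gene-end region within 1 kb (8.4%). Their median length was 22993 bp, against 17169 bp for all protein-coding genes. By chromosome the share ran from 6.70% on chromosome 7 to 11.1% on chromosome 15 among the autosomes, and was 1.66% on chromosome X (16 of 966 genes) and 0 of 256 genes on chromosome Y. More than 1 region lay at 81 genes, and 19 genes had a different region at each end. Eif4g1, the scaffold of the translation initiation complex, had regions 64 bp outside its start (28.9 and 18.6), 650 bp inside it (4.88 and 5.41) and 476 bp beyond its far end (9.35 and 5.55). Adamtsl4 had 7.69 and 4.12 at its start beside the stronger region near its far end. Crtc2, a CREB coactivator gene, had 22.1 and 11.1 at one end, with 4.95 in edKO replicate 4, and 23.3 and 17.2 at the other. Bmf, Smad6 and Mpc1, the mitochondrial pyruvate carrier gene, were the other genes with 3 regions.

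Gene-end regions were most frequent in the list for fatty acid oxidation, which breaks acyl chains down in mitochondria: 17 of 26 genes had one (65.4%, 95% Clopper-Pearson interval 44.3 to 82.8%), against 8.4% of all protein-coding genes. With peaks of WT replicate 3 alone, WT replicate 4 being left out, 21 of 26 had one, against 27.1% of all genes, and within 250 bp of an end 9 of 26, against 5.13%. Their median fold enrichments were 19.6 and 9.29 in WT replicates 3 and 4, against 9.01 and 5.97 over all 1838 genes with a region. All 14 with a known orientation had the region at the gene start. Of the shuttle that carries acyl groups into mitochondria, Slc25a20 had 27.8 and 22.6, the muscle transferase gene Cpt1b had 25.8 and 10.6 beside Chkb, Cpt2 had 11 and 6.19 and Cpt1a had 8.61 and 7.30. Among the first enzymes of the spiral, the acyl-CoA dehydrogenases, regions lay at Acadl (21.6 and 17.2), Acadm (20.1 and 16.3), Acadvl (20.4 and 11.6) and Acads (7.88 and 6.82). Their electron acceptors Etfb (29.6 and 26.5), Etfa (20.6 and 16.1) and Etfdh (19.6 and 9.29) each had a region. The thiolase gene Acaa2 had the strongest region of the list, at 41.3 and 32.7, and Hadha and Hadhb, the subunits of the trifunctional protein, shared the weakest (5.30 and 4.15). The listed genes without a region were Acadsb, Acat1, Acsl1, Auh, Crat, Echs1, Eci1, Eci2 and Hsd17b10. In edKO replicate 4, peaks lay at Acaa2 (8.08), Cpt1b (6.06), Acadl (5.30) and Acadvl (3.08), and edKO replicate 3 had none at the list.

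Other genes of lipid handling divided. Of 22 LXR targets and lipogenesis genes 8 had a gene-end region (36.4%), with median folds of 21.5 and 9.63, the former the highest of any list in WT replicate 3. Fasn led, followed by the phospholipid acyltransferase gene Lpcat3 (27.6 and 22.5), the cholesterol exporter gene Abca1 (27.3 and 22.5, with 7.37 in edKO replicate 4) and the acetyl-CoA carboxylase gene Acacb (30.4 and 9.84). All 8 regions were at gene starts. Of 31 peroxisome genes 8 had one (25.8%), led by the peroxisomal thiolase gene Acaa1a (21.2 and 17.2) and the transporter genes Abcd2 (14.0 and 8.46) and Abcd3 (12.6 and 5.23). Of 28 genes of lipid uptake, storage and release 5 had one (17.9%), with low folds: Dgat1, which makes triglycerides, had 9.19 and 3.49, Abhd5 had 7.75 and 3.39, the lipoprotein lipase gene Lpl had 6.36 and 4.67 and the droplet protein gene Plin4 had 6.36 and 4.45. With −log10 p of at least 10 in both WT hearts none of the 28 had a region (5.81% of all genes), and without WT replicate 4 it was 17 (60.7%, against 27.1%). Cd36, Fabp3 and Angptl4 were among the 23 without a gene-end region.

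In central carbon metabolism, 14 of 34 genes listed for pyruvate entry and the citric acid cycle had a gene-end region (41.2%, 24.6 to 59.3%). None of the 14 had an edKO replicate 4 peak. Of all 1838 genes with a region 3.1% did, so none among 14 genes is no contrast. Pdk4, the kinase that switches pyruvate dehydrogenase off, had 26.4 and 20.2, and Pdhb, a subunit of that complex, had 29.2 and 11.2. The isocitrate dehydrogenase gene Idh3b (12.8 and 11) and Mpc1 (14.1 and 9.34) followed. Of 25 genes of glycolysis and glucose uptake 6 had one (24%, 9.36 to 45.1%), namely the insulin-responsive glucose transporter gene Slc2a4 (24.4 and 12.6), Gapdh (21.5 and 11.7), Gpi1 (19.6 and 5.81), Eno1 (10.6 and 10.2), Pkm and Pfkm. Within 250 bp of an end, 2 of these 25 genes had a region (8%, against 5.13% of all genes).

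For the respiratory chain, 9 of 37 complex I genes (24.3%) and 7 of 41 genes of complexes III to V and cytochrome c (17.1%) had a gene-end region. In complex I the strongest were Ndufs4 (18.7 and 14.3), Ndufa1 (13.5 and 10.8), Ndufa4 (18 and 4.72) and Ndufa5 (14.2 and 7.5). In the later complexes they were Cox5b (17.8 and 9.92), the ATP synthase genes Atp5g2 and Atp5pb (15.2 and 6.52), and Cycs, the cytochrome c gene (11.2 and 5.81). The mitochondrial ribosome had regions at 13 of 77 genes (16.9%), all of them at gene starts, led by Mrps30 (21.8 and 13.1), Mrpl34 (17.2 and 10.2), Mrpl45 (12.1 and 12.5) and Mrps18b (13.1 and 10.5). Genes of mitochondrial import, dynamics and quality control had regions at 14 of 41 (34.1%, 20.1 to 50.6%), 2 of them at a far end. The strongest lay 838 bp beyond the far end of the protease gene Clpp, with Alkbh7 as the nearer gene (26.4 and 18.9). The ADP/ATP carrier gene Slc25a4 (19.2 and 10.4) and the pair Hspd1 and Hspe1 (15.4 and 6.29) followed.

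Genes of protein synthesis and folding differed among themselves. Of 30 chaperone and heat shock genes 12 had a gene-end region (40.0%, 22.7 to 59.4%), but with low median folds, at 7.39 and 5.17. The heat shock factor gene Hsf1 had 11.6 and 9.22, Hsp90b1 10.1 and 5.08, Hspa8 9.81 and 5.38 and Dnaja1 7.33 and 7.53. Translation factors had regions at 7 of 40 genes (17.5%), led by Eif4g1 and the poly(A)-binding protein gene Pabpc1 (32.2 and 13.1, with 7.20 in edKO replicate 4). Cytosolic ribosomal protein genes had 9 of 77 (11.7%, 5.49 to 21.0%), led by Rpl24 (21.2 and 13.4), Rps3a1 (19.9 and 7.90), Rps19 (9.47 and 7.59) and Rpl30 (9.60 and 6.54). The ubiquitin and proteasome list had 3 of 34 (8.82%), among them Psmb3 (8.22 and 5.33) and Psmd12 (5.83 and 4.09), a share near that of all genes. Antioxidant defence genes had 6 of 31 (19.4%), led by the NRF2 gene Nfe2l2 (26.1 and 6.94), Prdx5, catalase (Cat, 11.8 and 6.05) and Keap1, the repressor of NRF2 (11.2 and 5.76). None of the 31 had a region when the peaks of the WT hearts had to overlap by at least 50% of each, against 5.99% of all genes.

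Among regulators, 9 of 32 nuclear receptor genes had a gene-end region (28.1%, 13.7 to 46.7%). Beside Nr1d2 and Rxrb these included the testicular receptor gene Nr2c1 (16.6 and 11.1) and the REV-ERB alpha gene Nr1d1 (13.5 and 13.7). Ppara, the PPAR of fatty acid oxidation, had a region 631 bp inside its start that was higher in WT replicate 4 (10.2 and 14.6). Rxra, Rxrg, Pparg, Rara and Thra were among those without one. At a distance of 250 bp, 3 of the 32 had a region (9.38%, against 5.13% of all genes). Of 21 coregulator genes 3 had one (14.3%), namely the coactivator gene Ncoa3 (26.8 and 11.9), Lcor (19.5 and 11.1) and Tbl1xr1 (7.16 and 4.65). Of 20 clock genes 5 had one (25%), among them the REV-ERB genes Nr1d1 and Nr1d2, Per3 (11.5 and 5.72) and Cry2 (5.32 and 4.84). The clock count was 2 of 20 with an overlap of at least 50% of each peak (10%, against 5.99% of all genes). At a distance of 2 kb it was 9 of 20 (45%, against 9.77%). Immediate early and stress factors had 10 of 35 (28.6%), led by Gadd45a (24.2 and 10.3), the phosphatase gene Dusp1 (14.4 and 9.24), Egr1 (11.7 and 8.75) and Jund (9.25 and 9.34). Within 250 bp of an end, 3 of these 35 had a region (8.57%, against 5.13% of all genes). In the lists of cardiac transcription factors (1 of 22, Gata6, 7.69 and 6.47) and the cell cycle (1 of 28, the helicase gene Mcm7, 14.6 and 5.81) the share was 4.55 and 3.57%. Without WT replicate 4 these lists had 12 of 22 and 9 of 28, against 27.1% of all genes, so their low shares depend on that heart. The summit at Mcm7 lay 957 bp inside its start, with Ap4m1 as the nearer gene. With the summit of WT replicate 4 none of the 28 cell cycle genes had a region.

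Of 39 cardiomyocyte genes, those of contraction and calcium cycling, 10 had a gene-end region (25.6%, 13 to 42.1%), against 8.4% of all genes. Markers of the other cells of the heart had regions at 2 of 20 endothelial, 1 of 20 fibroblast and epicardial, none of 15 smooth muscle and pericyte and 1 of 20 blood and macrophage genes. This contrast depended on the distance. Within 250 bp of an end, 3 of the 39 cardiomyocyte genes (7.69%) and 1 of 20 endothelial markers (5%) had a region, against 5.13% of all genes. Within 2 kb it was 13 of 39 (33.3%) and 5 of 20 (25%), against 9.77%. Behind Myh6 came the cardiac troponin gene Tnni3 (29.6 and 23.6, with 4.80 in edKO replicate 4), Myl2 (29.3 and 17.5) and the myosin light chain gene Myl3 (14.6 and 9.34). The cardiac actin gene Actc1 (10.1 and 9.34) also had one, and Tnnt2 and Pln had none. The markers of other cells with a region were Tie1 (7.79 and 4.07), Nos3 (6.17 and 6.42), Vim (4.68 and 4.93) and Tfrc (10.0 and 5.70). Pecam1, Cdh5, Col1a1, Pdgfra, Acta2, Ptprc and Csf1r had none, and neither did any of 24 genes of liver, brain and gut (upper limit 14.2%). A region shows binding near a gene and not its transcript level. Gene lists share members and neighbouring genes share regions, and the lists are not matched on expression, so the counts are given beside the share of all genes with no test.

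**Figure D5:**
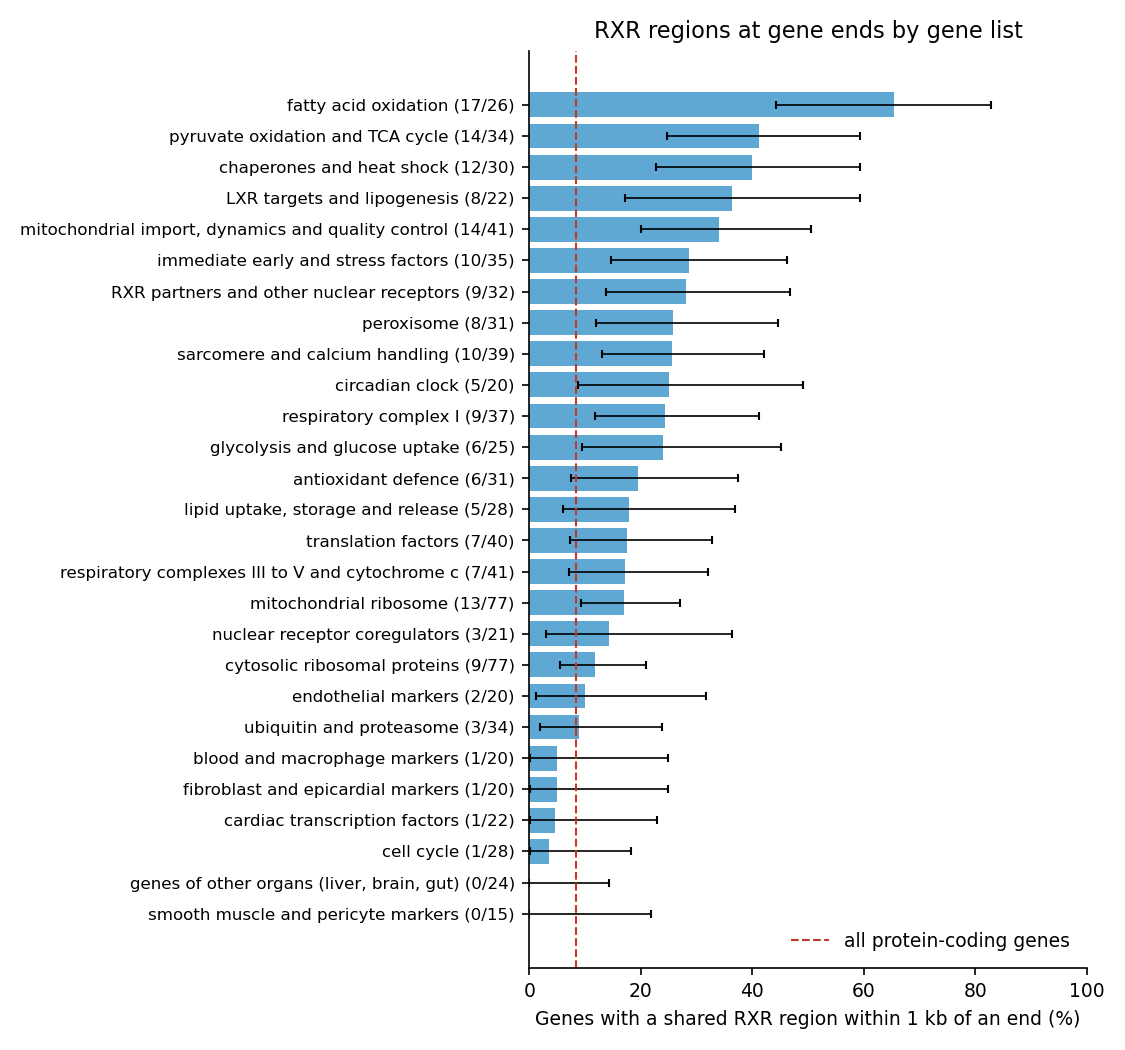
Share of the genes of each list with a gene-end region within 1 kb (x axis, %), with the number of genes with a region and listed beside each name (y axis), 95% Clopper-Pearson intervals as bars that cover counting error only, and the share of all protein-coding genes (8.4%) as a dashed line. Fatty acid oxidation has the longest bar (65.4%), and the lists of smooth muscle and pericyte markers and of genes of other organs have none.

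The strongest shared regions off gene ends were of similar height. They lay 6664 bp outside Elovl5, a fatty acid elongase gene (64.9 and 51 in WT replicates 3 and 4, 13.4 in edKO replicate 4), 5218 bp outside the thyroid hormone-responsive gene Klf9 (65.7 and 48.4, with 6.55 and 13.1 in edKO replicates 3 and 4) and 1202 bp inside an end of Klf10 (50.7 and 43.7, with 3.97 and 12.4). Klf10 also had a weaker gene-end region, 335 bp outside an end (8.32 and 8.75, no edKO peak).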

How the data were processed

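RXR immunoprecipitates and inputs of 4 hearts had been sequenced. Per the submitters' processing notes, cutadapt, BWA, SAMtools and MACS3 were used on mm10, with versions and settings not given in the sources used here. Both a paired run format and single-end reads appear in the labels, so what a fragment stands for in the counts below is not settled. Per the labels, each heart has its own peak list, so hearts were not pooled. The deposited columns used are the authors' fold enrichment (a ratio), their −log10 p and −log10 q, and the deposited positions and summits, printed 1-based. Fold enrichment is relative to the local background of a heart and ranks regions within its list. The fragments behind a summit were recovered from fold and −log10 p as whole numbers within 0.02 for 99.9 to 100% of the peaks checked; the lowest at a summit was 11, 12, 24 and 17 in WT replicates 3 and 4 and edKO replicates 3 and 4. Intervals cover counting error only.

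Regions and gene ends were joined with the RefSeq gene table of GRCm38.p6 (21887 protein-coding genes), and starts and promoters came from the RefSeq promoter table, which gives the orientation of 17492 of these genes and can place a start elsewhere than the gene table does, as at Myh6 and Myl2. Where several WT replicate 4 peaks overlapped, the strongest was used. Motif searches and overlaps were tested on simulated data. Tools were Python 3.11.15, pandas 2.3.3, numpy 2.4.6 and scipy 1.17.1. The regions and the 27 gene lists (870 entries, 1 matched by an older symbol) were chosen with earlier results of these data known, so list counts are no independent support. Named genes were the 20 highest mean WT folds, the region with peaks in both edKO hearts, the 10 highest edKO replicate 4 folds, up to 4 genes per list, the 3 highest and 3 lowest WT ratios, 3 regions on either side of 1 kb, the 3 with most gene ends, 3 genes with regions at both ends and the 3 strongest off gene ends. Some genes that this rule names are not reported here. Other named genes were added after seeing the data to complete small counts and groups. Alternatives changed the distance, the overlap, the p threshold, the summit, the gene table, the hearts and the strand searched. No test compared the genotypes.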

Additional observations from a re-analysis of the deposited data

How the results depend on the processing

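Of 76 alternative values of the 9 main results, 12 moved. Values not counted as moved could still fall: 1628 regions at 1838 genes became 1132 at 1311 with an overlap of at least 50% of each peak. With a distance of 250 bp to a gene end there were 1008 regions, 29 of them with an edKO replicate 4 peak, at 1123 genes, and 83.1% had a gene start within reach, against 81.1% at 1 kb. With −log10 p of at least 10 in both WT hearts there were 1107 regions at 1272 genes, and the median fold in WT replicate 3 was 10.9. With all genes of the table the share of gene starts was 77.3%. These shares are of all regions, and a gene end without a known orientation cannot count as a start. Without WT replicate 4, when every gene-end peak of WT replicate 3 is taken, the number of regions was 5972 (1727 without WT replicate 3), the genes with a region 5932 (1920 without WT replicate 3) and the share of starts 77.4% (81.4% without WT replicate 3), and the median fold in WT replicate 3 was 5.45. The share of promoters with the AGGTCA hexamer, 14.1%, was 7.79% on the strand of the gene alone and 17.3% where the summit lay in the promoter. Of 216 alternative counts of the gene lists 61 moved by over 1.5 times, 25 of them without WT replicate 4, when 27.1% of all genes had a region and fatty acid oxidation had 21 of 26 (80.8%), the list for pyruvate entry and the citric acid cycle 25 of 34, chaperones 23 of 30 and cardiac transcription factors 12 of 22 (54.5%, from 4.55%). At 250 bp, fatty acid oxidation had 9 of 26 genes (34.6%) against 5.13% of all genes. No paired analysis was possible because no result comes from a test between the genotypes and the labels do not say that a heart's number marks a litter or a day. The weakest WT replicate 3 summit of a gene-end region held 12 fragments, the read totals of the libraries are not in the peak lists, and an absent edKO peak is not an absence of binding.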
